A study of Homo sapiens with 2 samples.

Results

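The Wnt and beta-catenin pathway was described here by 42 genes, chosen by name for their roles as receptors, cytoplasmic regulators, nuclear factors and target genes. Of these, 38 were named in the table used, out of 17687 genes in all, and PORCN, FZD8, DVL1 and TCF7 were not analysed here. The cells were SW48, a human cell line established from a colorectal tumour and carrying an activating change in beta-catenin itself. Cells were transfected with a small interfering RNA, or siRNA, that targets YY1, a DNA-binding zinc finger protein known both as an activator and as a repressor of genes, or with a negative control siRNA. Both siRNAs were used at 5 nmol/L, with the same lipid reagent, and RNA was taken after 3 days. Each condition, named siControl and siYY1, gave 1 whole-transcript array, so there was no replicate error and no test. A single siRNA stood for the knockdown, and the level of YY1 was not analysed here, so its depth was not checked.

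Canonical Wnt signalling turns on the stability of beta-catenin. Without a signal, a destruction complex built on APC and axin lets casein kinase 1 and glycogen synthase kinase 3 phosphorylate beta-catenin, which the ubiquitin ligase adaptor BTRC then sends to the proteasome. Wnt ligands bound to Frizzled receptors and LRP co-receptors recruit Dishevelled, stop the complex, and let beta-catenin reach TCF and LEF factors on target genes. In the colon this pathway maintains the stem cells of the crypt, and most colorectal cancers activate it through changes in APC or beta-catenin. Several targets, among them AXIN2, NKD1, RNF43, ZNRF3 and NOTUM, encode inhibitors that feed back on the pathway.

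The values were the authors' deposited levels, treated as log2 from their range. Every difference below is siYY1 minus siControl on that scale. A fold takes the values as plain log2. Genes entered the counts when the mean over siControl and siYY1 reached 7.54, which is the median over named genes. This kept 8844 genes and 32 of the 38 members. Of the 10 colon epithelial markers in the table, 7 lay above this value on both arrays (EPCAM, CDH1, KRT8, KRT18, KRT19, CDX2 and CDH17), while CDX1, VIL1 and LGALS4 lay under it. Of the 15 fibroblast, leukocyte and endothelial markers, 1, COL1A2, lay above it on both arrays.

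Promoter sequence was shown for 4 members, so that a reader can see what the region before the start of these genes holds. CTNNB1 encodes beta-catenin, the centre of the pathway. SP5 is a transcription factor gene and a well-known direct target. SOX4 and LRP5 had differences past 1.5-fold. Each line gives the 250 bases before a RefSeq start of the gene in GRCh38.p14, all on the plus strand, at chr3:41199255-41199504 for CTNNB1, chr2:170715087-170715336 for SP5, chr6:21593501-21593750 for SOX4 and chr11:68312341-68312590 for LRP5. Capitals mark matches on either strand to CCATNTT, a short form of the YY1 site, or to CTTTGNN with A or T at each N, a short form of the TCF and LEF site.
CTNNB1: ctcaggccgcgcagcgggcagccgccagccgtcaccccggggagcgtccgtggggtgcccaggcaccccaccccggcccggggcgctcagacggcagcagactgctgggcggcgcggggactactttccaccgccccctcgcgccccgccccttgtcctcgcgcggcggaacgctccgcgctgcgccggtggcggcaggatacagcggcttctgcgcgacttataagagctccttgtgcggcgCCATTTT
SP5: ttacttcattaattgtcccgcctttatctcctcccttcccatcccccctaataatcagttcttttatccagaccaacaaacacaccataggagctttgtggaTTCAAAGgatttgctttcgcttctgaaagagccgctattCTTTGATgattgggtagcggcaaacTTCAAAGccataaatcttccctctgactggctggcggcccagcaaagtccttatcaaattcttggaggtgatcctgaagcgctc
SOX4: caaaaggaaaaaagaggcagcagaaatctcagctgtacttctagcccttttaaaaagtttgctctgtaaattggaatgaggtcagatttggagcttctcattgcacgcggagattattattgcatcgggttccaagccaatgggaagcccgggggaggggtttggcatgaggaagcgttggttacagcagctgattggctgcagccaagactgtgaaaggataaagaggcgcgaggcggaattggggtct
LRP5: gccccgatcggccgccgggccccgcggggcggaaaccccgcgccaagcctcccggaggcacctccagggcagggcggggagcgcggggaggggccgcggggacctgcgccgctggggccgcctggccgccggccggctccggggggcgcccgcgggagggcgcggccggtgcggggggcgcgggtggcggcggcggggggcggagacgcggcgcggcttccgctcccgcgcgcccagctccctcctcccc

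CTNNB1 held 1 YY1 word, whose first base lay 7 bases before the start, and no TCF word. SP5 held 3 TCF words, with their first bases 148, 109 and 84 bases before the start, and no YY1 word. SOX4 and LRP5 held neither. None of these windows held words of both kinds. Over all 35116 such windows in the RefSeq table, 11.6% held a YY1 word and 12% a TCF word. The table had 34 windows for 25 of the 38 measured members, and 3 windows (8.82%) held a YY1 word, those of CTNNB1, CSNK1A1 and RNF43. TCF words were likewise in 3 windows, those of SP5, DKK1 and TCF7L2. A word is only a match of letters, and its absence says only that these letters are not in this window. The members with a YY1 word had differences of 0.11 for CTNNB1, -0.20 for CSNK1A1 and 0.03 for RNF43, with a median of 0.03. The 17 kept members with windows but no YY1 word had a median of 0.05, from -0.60 to 0.71. NKD1, AXIN2 and NOTUM were among the members without a window, so they are in neither group. CSNK1A1 and RNF43 each also had a window without the word. A link between word and difference was not tested.

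Between siYY1 and siControl, 3 members kept by the filter were at least 1.5-fold higher, namely NKD1, SOX4 and TNFRSF19, all known beta-catenin targets. The co-receptor gene LRP5 was the only kept member at least 1.5-fold lower. The other 28 of 32 lay within 1.5-fold, among them beta-catenin, every measured member of the destruction complex and the targets AXIN2, RNF43 and MYC. The 3 higher members made 9.38% of those kept, beside 3.04% of all kept genes, and the 1 lower member made 3.12%, beside 3.78%. Over the kept members 21 differences were above 0 (65.6%) and 11 below, with a median of 0.09. Over all genes kept, 50.4% were above 0, with a median of 0.00. The members were chosen with earlier results of these data in view, so their share of higher genes describes them and supports nothing further.

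**Figure D1:**
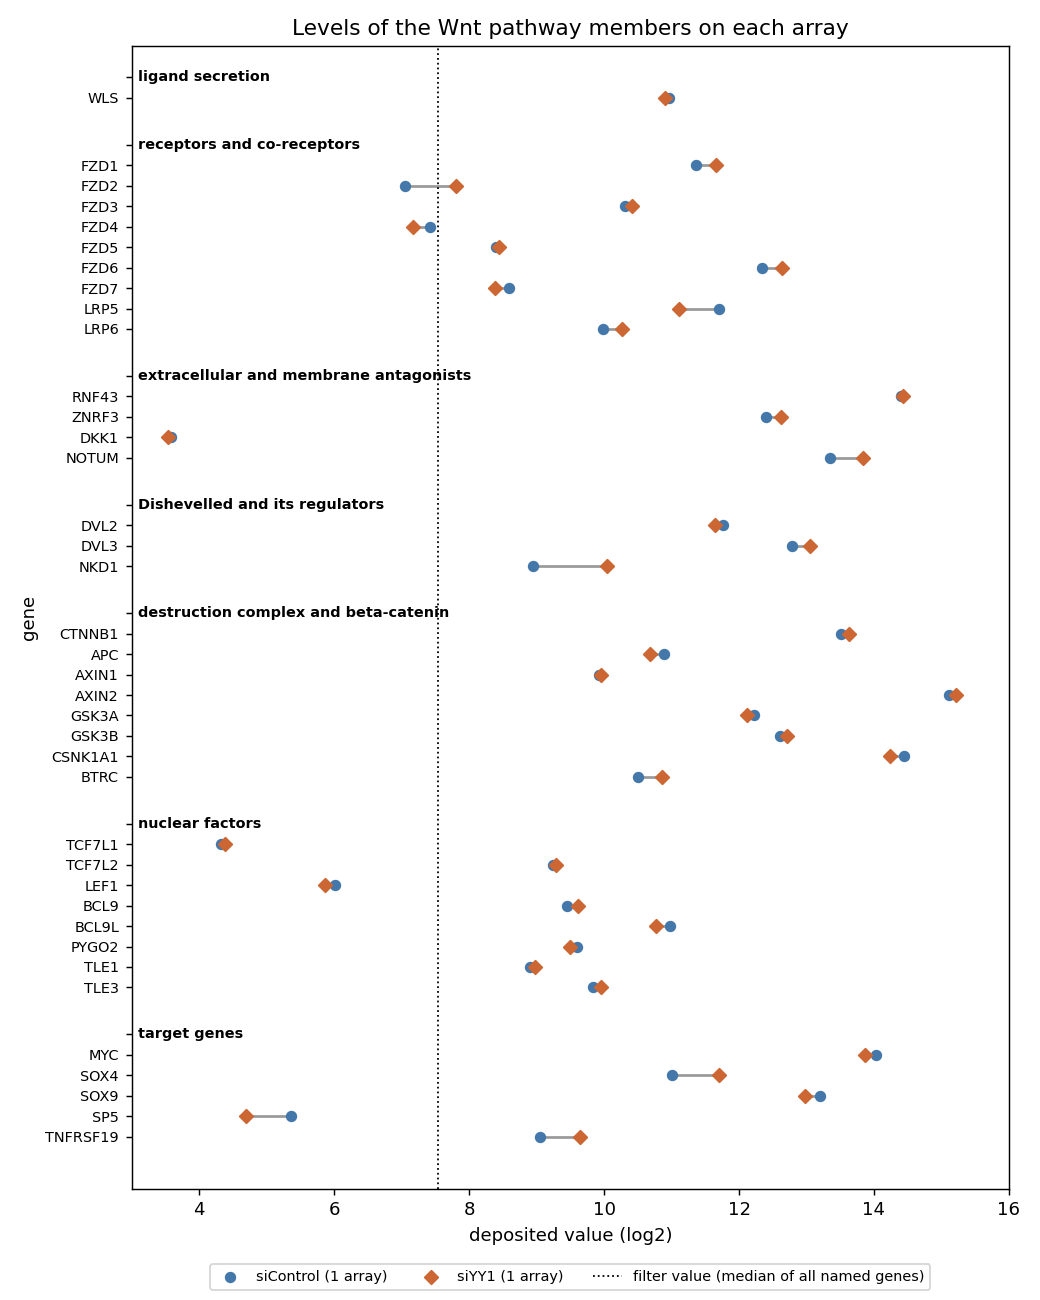
Deposited values, treated as log2 (x axis), of the 38 measured members (y axis, grouped by role) in siControl (circles) and siYY1 (diamonds), 1 array each. A dotted line marks the filter value of 7.54. NKD1 has the widest gap of all members, whereas most members have nearly the same value on both arrays.

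Shares past 1.5-fold were larger among dimmer genes. Among the kept genes of lowest brightness, with means from 7.54 to 9.93, 4.65% lay past 1.5-fold in the higher direction and 5.43% in the lower one. In the middle range, from 9.93 to 11.75, these shares were 2.88% and 3.77%, and in the brightest they were 1.59% and 2.14%. NKD1 and TNFRSF19 lay in the dimmest range, SOX4 and LRP5 in the middle one. None of the 12 members in the brightest range was past 1.5-fold in either direction, and with the stricter filter SOX4 alone was left of the 3 higher members.

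**Figure D2:**
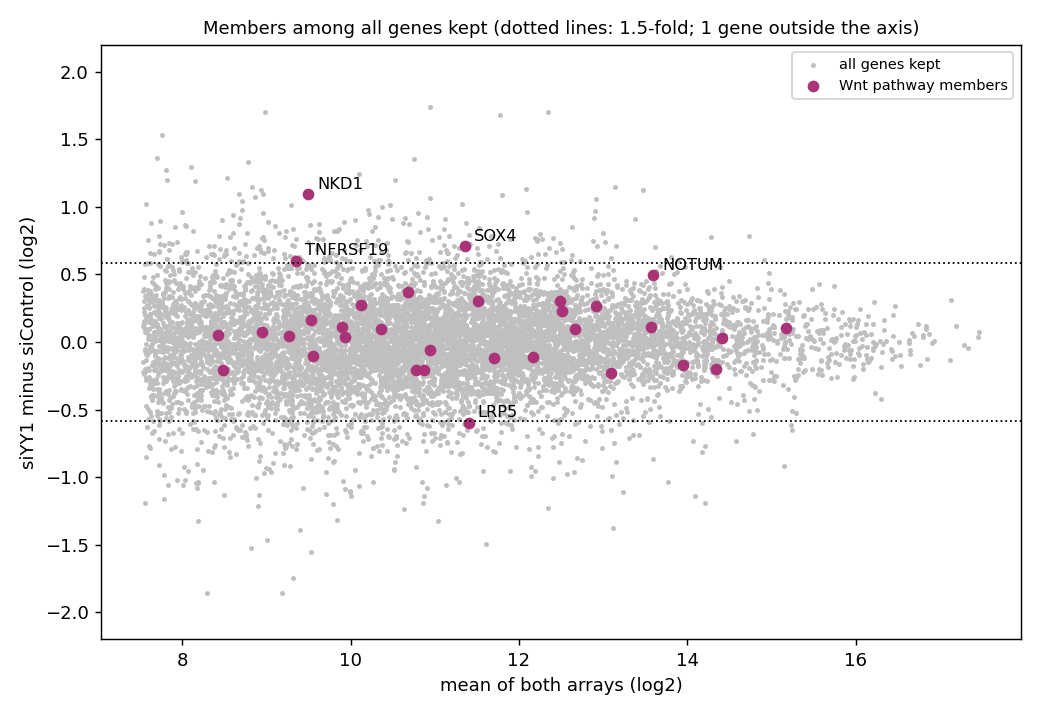
Difference of siYY1 minus siControl (y axis, log2) against the mean of both arrays (x axis, log2) for the 8844 genes kept (grey) and the 32 members among them (purple). Members past 1.5-fold and NOTUM are labelled, and most members lie inside the grey band of all genes.

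NKD1 encodes a Dishevelled-binding protein that dampens Wnt signalling and is itself switched on by beta-catenin. Its value went from 8.95 (siControl) to 10.04 (siYY1), so siYY1 was higher by 1.09, or 2.13-fold. It was the only member past 2-fold in either direction, and it ranked 24th from the top among the 8844 genes kept. SOX4, an HMG-box transcription factor gene, was measured at 11.00 in siControl and 11.71 in siYY1. The siYY1 value was thus higher by 0.71, or 1.63-fold, and SOX4 ranked 142nd. TNFRSF19, a receptor of the tumour necrosis factor family also known as TROY and found on intestinal stem cells, had 9.05 in siControl and 9.65 in siYY1. Its difference of 0.60, or 1.52-fold, lay just past the threshold, and it ranked 244th.

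The other members of the target gene role, MYC, SOX9 and SP5, did not share this direction. MYC, the growth-promoting transcription factor gene, had 14.03 in siControl and 13.86 in siYY1 (difference -0.17). SOX9, a transcription factor gene of the crypt base, was at 13.21 and 12.97, a difference of -0.23. Both were slightly lower in siYY1 and inside 1.5-fold. SP5, whose promoter window held 3 TCF words, was dim, at 5.37 in siControl and 4.69 in siYY1. Its difference of -0.68 came from values under the filter on both arrays, and no source shows that these exceed background, which makes its size uncertain. The same holds for DKK1 and LEF1 below. The 4 kept members of this role, MYC, SOX4, SOX9 and TNFRSF19, had a median of 0.22, which turned to -0.17 both without the filter and with a stricter one at the 75th percentile.

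The kept inhibitors that beta-catenin induces, NKD1 aside, were even or up to 1.41-fold higher in siYY1. NOTUM, an enzyme that removes the lipid from Wnt ligands, was at 13.34 in siControl and 13.84 in siYY1, so siYY1 was higher by 0.49 (1.41-fold). ZNRF3, a ubiquitin ligase that removes Frizzled receptors from the cell surface, was at 12.39 and 12.62 (0.23). Its paralog RNF43, with the same function, was nearly equal at 14.40 and 14.43 (0.03). AXIN2, the scaffold of the destruction complex that is widely used as a readout of the pathway, was also nearly equal at 15.12 and 15.22 (0.10). DKK1, which binds LRP co-receptors and blocks them, was at 3.58 and 3.54, under the filter on both arrays. None of these inhibitors other than NKD1 was past 1.5-fold.

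The role list holds 13 members that are known targets, counting the feedback inhibitors and the factors TCF7 and LEF1. Of the 9 that were kept, 7 were higher (77.8%, beside 50.4% of all genes kept) and 2 lower in siYY1, with a median of 0.23. The largest positive difference was that of NKD1 and the largest negative that of SOX9. The filter removed the dim genes SP5, DKK1 and LEF1, all lower in siYY1. Without it, 7 measured targets were higher and 5 lower, with a median of 0.069. With the stricter filter, 5 were higher and 2 lower, with a median of 0.10.

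Among receptors, 5 of the 7 kept members were higher in siYY1 (71.4%, beside 50.4% of all genes kept) and 2 were lower. The 7 had a median of 0.10 (0.30 with the stricter filter). LRP5, a co-receptor that carries the Wnt signal to axin, was at 11.70 in siControl and 11.10 in siYY1. It was lower by 1.51-fold (difference -0.60), just past the threshold, and ranked 319th from the bottom of the genes kept. Its paralog LRP6, which has the same role, differed in the other direction, from 9.99 in siControl to 10.26 in siYY1 (0.27). The co-receptors therefore showed opposite signs, and LRP6 lay within 1.5-fold.

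The Frizzled genes encode the receptors that bind Wnt ligands. FZD6 was at 12.34 in siControl and 12.64 in siYY1, and FZD1 at 11.36 and 11.66, each higher by 0.30. FZD3 was at 10.31 and 10.41 (0.10), and FZD5 at 8.39 and 8.45 (0.05). FZD7 was slightly lower, at 8.59 and 8.39 (-0.21). No Frizzled gene kept by the filter was past 1.5-fold. The remaining Frizzled members were near the filter value. FZD2 had 7.05 in siControl and 7.81 in siYY1 (0.75). The first of these lay under the filter value, so this difference is uncertain. FZD4 was at 7.41 and 7.17 (-0.25), under it on both arrays. Counted without the filter, FZD2 would make 4 members at least 1.5-fold higher, beside 3.98% of all named genes, and SP5 would make 2 members lower, beside 3.9%. WLS, the carrier that brings Wnt ligands to the cell surface, was nearly equal at 10.97 in siControl and 10.91 in siYY1 (-0.06).

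Dishevelled proteins pass the signal from Frizzled to the destruction complex. DVL3 was at 12.78 in siControl and 13.05 in siYY1 (0.26), and DVL2 at 11.76 and 11.64 (-0.12). Neither was past 1.5-fold.

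Beta-catenin and the destruction complex were close to even between the arrays, with differences from -0.21 to 0.37 over 8 members and a median of 0.07. CTNNB1 was at 13.52 in siControl and 13.63 in siYY1 (0.11). APC, the scaffold lost in most colorectal cancers, was at 10.89 and 10.68 (-0.21), and AXIN1, the constitutive axin, at 9.92 and 9.96 (0.04). These small differences did not share a sign. Of the kinases, GSK3A was at 12.22 and 12.11 (-0.11), GSK3B at 12.61 and 12.71 (0.10), and CSNK1A1, which places the first phosphate on beta-catenin, at 14.44 and 14.24 (-0.20). BTRC, which recognises phosphorylated beta-catenin, had the largest difference of the group, at 10.50 in siControl and 10.86 in siYY1 (0.37). The array measures RNA, so the amount of beta-catenin protein, which this complex sets, was not measured.

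The nuclear factors had a narrow range of differences, from -0.20 to 0.16 over the 6 members kept, with a median of 0.06. TCF7L2, the main TCF factor of the intestine, was at 9.25 in siControl and 9.29 in siYY1 (0.04). The co-activator genes BCL9 (9.45 and 9.61, difference 0.16) and BCL9L (10.97 and 10.77, difference -0.20) link beta-catenin to PYGO2, which was at 9.60 and 9.49 (-0.11). These partners thus differed in opposite directions by small amounts. The Groucho-type co-repressor genes TLE1 (8.90 and 8.98, difference 0.08) and TLE3 (9.84 and 9.95, difference 0.11) were slightly higher in siYY1. TCF7L1 (4.32 and 4.38) and LEF1 (6.01 and 5.87) lay under the filter on both arrays. With LEF1 and TCF7L1 dim and TCF7 not analysed here, TCF7L2 was the only factor of its family kept.

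**Figure D3:**
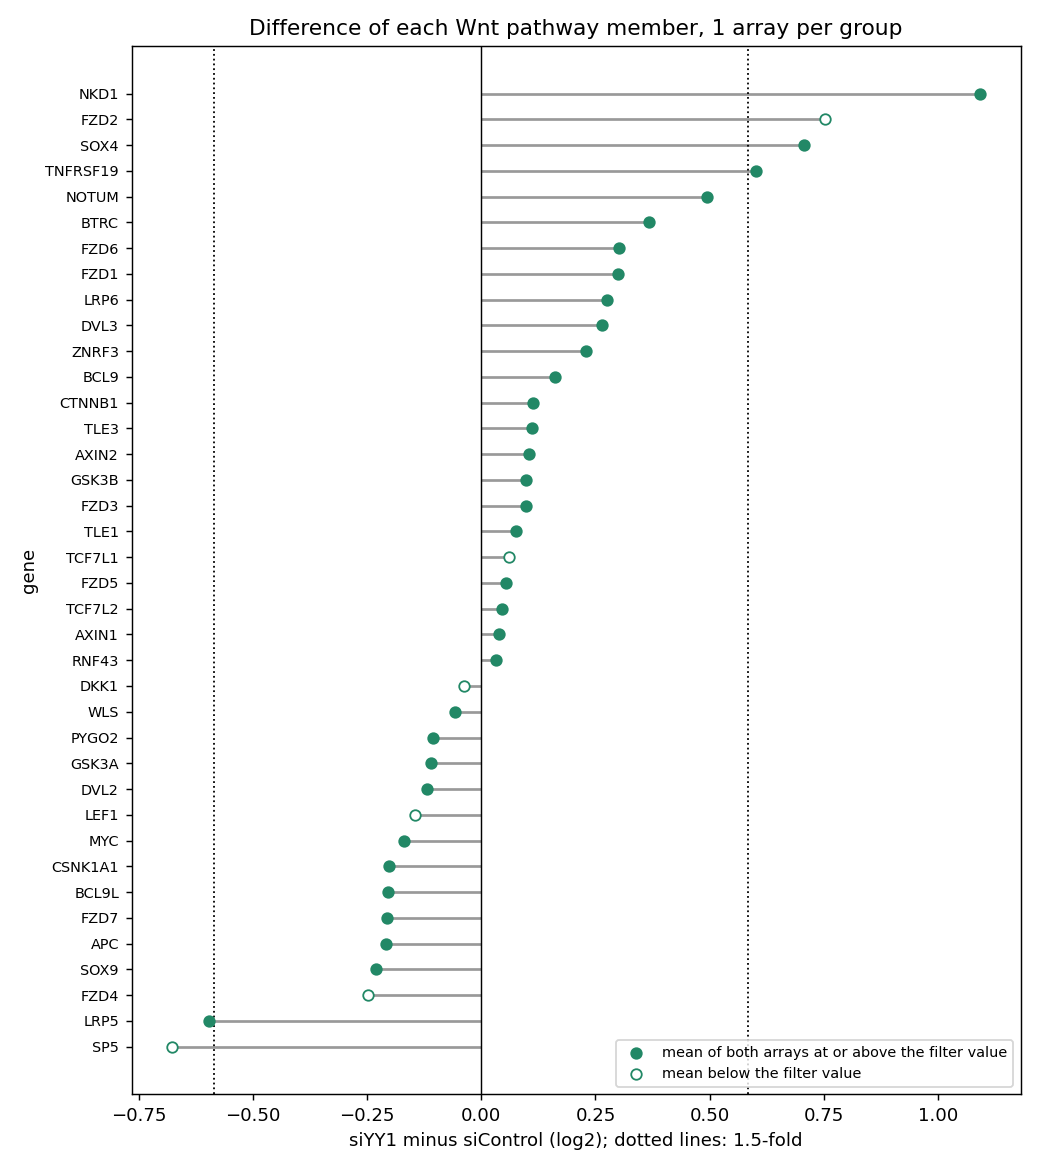
Difference of siYY1 minus siControl (x axis, log2) for each of the 38 measured members (y axis), sorted, with dotted lines at 1.5-fold. Filled points are the 32 members kept and open points the 6 under the filter value, and NKD1 at 1.09 and LRP5 at -0.60 are the ends of the filled points.

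A wider list of 142 other pathway genes gave the surroundings of the members. Of these, 134 were in the table and 69 were kept. At 1.5-fold, 2 were higher in siYY1 (2.9% of those kept, beside 3.04% of all genes kept) and 4 were lower (5.8%, beside 3.78%). The median difference was 0.12, with 39 genes above 0 (56.5%, beside 50.4% of all genes kept) and 30 below. The genes higher were JAG1 and TPBG, and those lower PLAUR, FOSL1, HIPK2 and MYB.

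None of the 18 measured Wnt ligand genes was kept. Their siControl values lay between 3.17 and 6.95, and their siYY1 values between 3.22 and 6.36. The R-spondins, which strengthen Wnt signals by removing RNF43 and ZNRF3 from the cell surface, were all under the filter as well. Of their receptors, LGR4 was at 10.34 in siControl and 10.27 in siYY1 (-0.07), LGR5, the marker of crypt stem cells, at 7.62 and 7.90 (0.28), and LGR6 at 8.48 and 8.26 (-0.22). The R-spondin receptors thus lay within 1.5-fold, without a common sign.

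Other receptors for Wnt ligands were higher in siYY1 by less than 1.5-fold. The receptor-like kinase genes ROR1 (10.32 in siControl, 10.88 in siYY1, difference 0.56) and RYK (12.84 and 13.27, difference 0.43) had the larger differences, and PTK7, a co-receptor in planar polarity, the smallest (10.84 and 10.95, difference 0.11). Of 14 other extracellular and membrane antagonist genes, 2 were kept. TPBG, a membrane glycoprotein that inhibits signalling through LRP6, was at 9.21 in siControl and 9.97 in siYY1, higher by 0.77. KREMEN1, a partner of DKK1, was at 11.11 and 11.23 (0.12).

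Regulators of Dishevelled were split, with 3 of the 6 kept genes higher and 3 lower. CXXC5, a Dishevelled-binding inhibitor, was at 10.50 in siControl and 10.93 in siYY1 (0.43), and DIXDC1, a positive regulator with a DIX domain, at 8.32 and 8.55 (0.23). KLHL12, an adaptor for Dishevelled degradation, was at 11.30 and 10.98 (-0.33), and the kinase gene CSNK1E at 13.68 and 13.40 (-0.28). Among 12 other kept genes around the destruction complex, 9 were higher in siYY1 (75%, beside 50.4% of all genes kept). The 12 had a median of 0.17, and none was past 1.5-fold. The highest were RBX1, the RING subunit of the ligase that BTRC serves (11.44 and 11.97, difference 0.53), and TNKS, a tankyrase that marks axin for degradation (8.68 and 9.15, difference 0.47). The lowest were the phosphatase subunit genes PPP2CA (14.29 and 13.96, difference -0.32) and PPP2R5E (12.73 and 12.45, difference -0.28).

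Of 17 other kept nuclear factor genes, 10 were higher (58.8%, beside 50.4% of all genes kept) and 7 lower. The 17 had a median of 0.06, as over the members of this role. HIPK2, a nuclear kinase that acts on TCF factors, was the only one past 1.5-fold, at 12.80 in siControl and 12.02 in siYY1 (-0.78). CDK8, a Mediator kinase and colorectal oncogene, was at 10.71 and 10.32 (-0.40). At the other end, SSBP2 was at 8.33 and 8.79 (0.46), and CTNNBIP1, which blocks the binding of beta-catenin to TCF factors, at 8.19 and 8.56 (0.37).

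Further target genes differed in both directions, by up to 1.14 in size. Of the 16 kept, 7 were higher (43.8%, beside 50.4% of all genes kept) and 9 lower. The 16 had a median of -0.07, beside 0.23 over the 9 known targets among the members. JAG1, the Notch ligand gene, was at 9.86 in siControl and 10.79 in siYY1 (0.93), and TBX3, a T-box factor gene, at 11.28 and 11.71 (0.44). PLAUR, the urokinase receptor gene, was at 11.45 and 10.31 (-1.14), FOSL1, a subunit of the AP-1 factor, at 12.67 and 11.71 (-0.96), and MYB at 11.96 and 11.37 (-0.59). PLAUR was the only gene of the wider list past 2-fold. PLAUR and FOSL1 are also known targets of other pathways, such as ERK signalling, and the part of such pathways in these values was not tested. The difference between the medians of these target lists was not tested either, since the members of both were chosen by name with results in view.

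**Figure D4:**
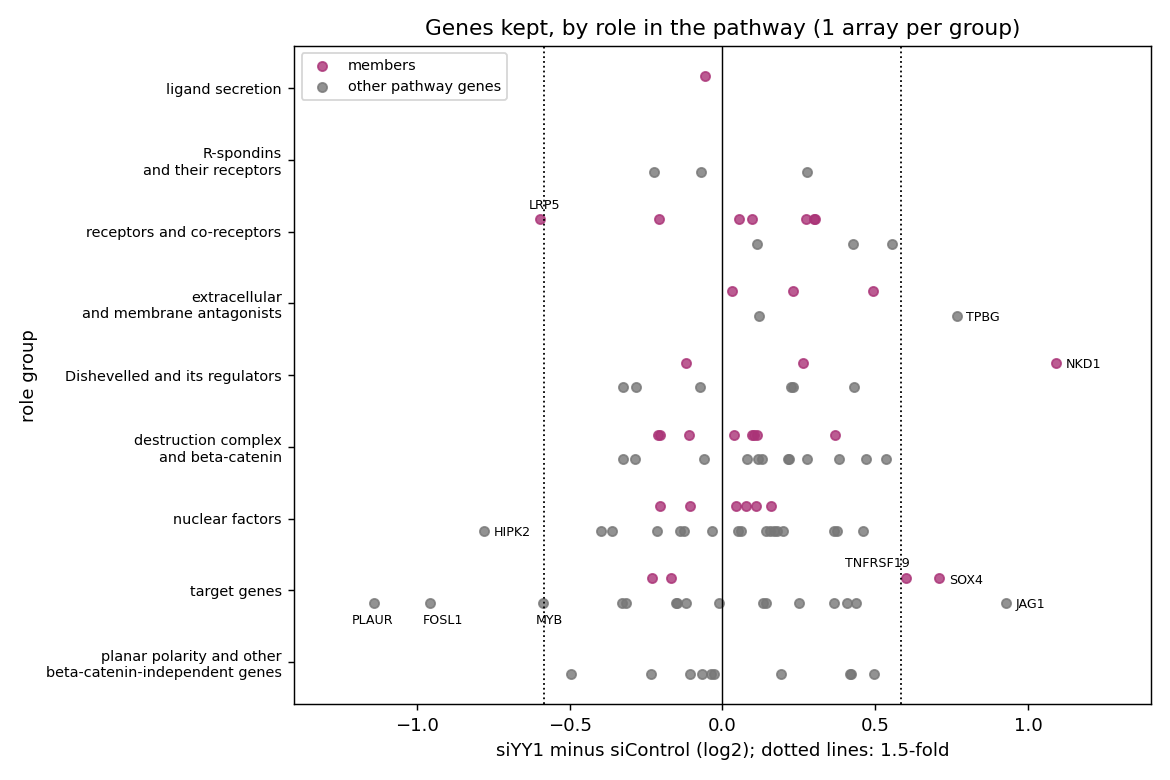
Difference of siYY1 minus siControl (x axis, log2) for the 32 members (purple) and the 69 other pathway genes (grey) kept by the filter, by role (y axis), with dotted lines at 1.5-fold and the genes past them labelled. Target genes reach from PLAUR at -1.14 to JAG1 at 0.93, while no kept gene of the destruction complex lies past 1.5-fold.

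Genes of planar polarity and other branches that do not use beta-catenin had a median of -0.03 over 10 kept genes, with 0 past 1.5-fold. VANGL1, a core polarity protein gene, was at 11.25 in siControl and 11.74 in siYY1 (0.50), and INVS, which encodes the Dishevelled-binding protein inversin, at 10.86 and 11.28 (0.42). DAAM1, a formin gene, was at 10.66 and 10.17 (-0.49), and PRICKLE3 at 8.69 and 8.45 (-0.23).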

How the data were processed

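RNA of SW48 cells was measured on 1 whole-transcript array per condition. The authors deposited 1 summarized value per probe, which was treated as log2 because all values lay between 2.32 and 17.97. No source used here names the software, the normalization, the background correction or the log base. Once sorted, the columns differed nowhere by more than 0.153, so the arrays had nearly the same distribution. Labelling with biotin by terminal transferase is per the labels' protocols. Groups came from the sample titles.

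Of 21448 probe sets, 17709 were named through GEO's platform annotation. Probe sets of a gene were averaged (20 genes), and each measured member had 1 probe set. Genes with a mean at or above the median of named genes were kept. A fixed size of 1.5-fold took the place of a test, and a group median needed 3 kept genes. All measured members are named. Of the wider list, genes kept and past 1.5-fold are named, and up to 2 at each end of a role. The members, lists and rules were chosen with earlier results of these data known. Promoter windows and gene starts are from RefSeq, GRCh38.p14. The arrays' number limits the precision of every value. The steps were run on simulated arrays with 2-fold differences put into genes well above the filter value. That run does not cover differences near 1.5-fold or dim genes. Alternatives were other filters and folds, median, lowess (fraction 0.3) and quantile scaling, and the brightest probe set. Software was Python 3.11.15 with pandas 2.3.3, numpy 2.4.6, matplotlib 3.10.9 and statsmodels 0.14.6.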

Additional observations from a re-analysis of the deposited data

How the results depend on the processing

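With 1 array per group no left-out array could be tried, and no value below has an error. No paired analysis was possible because each group has 1 array. Median centring, lowess centring, quantile normalization and the brightest probe set gave the reported numbers past 1.5-fold, for members and the wider list. They moved no member by more than 0.046. Quantile normalization put RNF43 at 0, so that 20 members, and 6 of the known targets among them, were above 0. The other 3 gave the reported numbers above and below 0. TNFRSF19 (0.59 after median centring) and LRP5 stayed close to the threshold.

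Without a filter, 2 of 38 members were lower at 1.5-fold, and in the wider list 6 of 134 were higher and 7 lower, beside 3.98% higher and 3.9% lower of all genes. The medians were then -0.17 for the role group of target genes and 0.069 for all known targets among the members. With the stricter filter, at the 75th percentile, 1 of 18 members and 0 of 42 genes of the wider list were higher, beside 1.97% of the 4422 genes kept. In the lower direction, 1 of 18 members and 4 of 42 genes of the wider list were past 1.5-fold, beside 2.65%. The medians were 0.30 for receptors, -0.17 for target genes and 0.10 for known targets, beside 0.10, 0.22 and 0.23 as reported. At a lower threshold, a log2 difference of 0.32, 5 of 32 members were higher and 1 lower. In the wider list 17 of 69 were higher and 10 lower, beside 12.2% higher and 13.5% lower of all genes kept. At 2-fold, 1 member was higher and 0 lower, and in the wider list 0 were higher and 1 lower, beside 0.373% and 0.577%. The sign of the median of the target gene role group thus depended on the filter, through fewer or dimmer genes. The median of the known targets among the members stayed above 0 with each filter.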
